A study of Homo sapiens with 19 samples.

Results

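HepaRG is a human hepatic line that differentiates into hepatocyte-like and biliary-like cells. Differentiated HepaRG cells kept in the kinase inhibitor BX795 were compared with and without an siRNA against ADAR, taking the 2 libraries of BX795 with siADAR and the 3 libraries of BX795 alone by their labels. These are 5 of the 19 libraries of the series, and all 5 belong to its batch 2. The siRNA was given at 20 nM and BX795 at 1 µM, and the inhibitor stayed in the medium from the day of transfection through the changes at 24 h and 48 h. The other batch 2 libraries were 3 of a control siRNA (siNC) without BX795 and 2 of interferon alpha (IFNa) at 1000 U/mL. They share the estimate of spread in the fit and serve as reference levels. Batch 1 holds 3 siNC and 3 siADAR libraries without BX795, which give the response to the same siRNA outside the inhibitor, and 3 siADARB1 libraries. The labels do not say whether the wells with BX795 alone received a control siRNA or transfection reagent, so transfection itself and loss of ADAR cannot be told apart in the main comparison. They also do not say that replicates were separate cultures, so p-values measure the spread between these libraries, which may be technical.

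ADAR converts adenosine to inosine in double-stranded RNA. This marks the cell's own RNA so that the sensors MDA5 (gene IFIH1), PKR (EIF2AK2), ZBP1 and the OAS enzymes with RNase L are not triggered by it. Sensors of the RIG-I and MDA5 family signal through MAVS to the kinases TBK1 and IKK epsilon, which activate IRF3 and so the genes of type I and type III interferons. Secreted interferon then acts through JAK1, TYK2, STAT2 and IRF9 on the interferon stimulated response element (ISRE) of its target genes. BX795 inhibits TBK1 and IKK epsilon and also PDK1. The comparison asks what ADAR siRNA does to the transcriptome while that relay is inhibited.

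The promoters below are examples that hold the letters searched for, shown because interferon stimulated genes rose and cell cycle genes fell in this comparison. They are the 250 bases before the RefSeq transcription start (GRCh38.p14), 5′ to 3′ on the strand of the gene. Capitals mark the core of the ISRE, searched as GAAA, any 2 bases and GAAA again, in either orientation for IFIT1, IFI27 and IFI6. For TOP2A and MKI67 they mark the CCAAT box in either orientation, so that it also reads ATTGG. IFI6 did not pass the test, and the promoters of MX1, OAS1 and IRF9, which rose, held no match to the ISRE letters searched. The OAS1 promoter held GAAACGAAA, a shorter spacing that the search did not take, so no match does not mean no element.
IFIT1 promoter (chr10:89392373-89392622, + strand): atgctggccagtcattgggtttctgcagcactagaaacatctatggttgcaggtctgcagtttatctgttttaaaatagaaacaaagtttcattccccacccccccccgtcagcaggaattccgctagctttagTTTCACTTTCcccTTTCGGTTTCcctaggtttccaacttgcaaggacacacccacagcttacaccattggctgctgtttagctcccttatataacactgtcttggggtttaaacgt
IFI27 promoter (chr14:94110486-94110735, + strand): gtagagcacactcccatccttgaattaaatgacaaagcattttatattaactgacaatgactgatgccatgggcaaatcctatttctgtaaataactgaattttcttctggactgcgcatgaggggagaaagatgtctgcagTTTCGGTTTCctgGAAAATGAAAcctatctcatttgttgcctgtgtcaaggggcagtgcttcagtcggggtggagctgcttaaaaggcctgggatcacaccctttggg
IFI6 promoter (chr1:27672193-27672442, - strand): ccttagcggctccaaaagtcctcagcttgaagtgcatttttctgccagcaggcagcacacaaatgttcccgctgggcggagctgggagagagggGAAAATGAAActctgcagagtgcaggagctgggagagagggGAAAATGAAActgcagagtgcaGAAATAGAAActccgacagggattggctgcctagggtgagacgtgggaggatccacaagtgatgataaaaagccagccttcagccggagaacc
TOP2A promoter (chr17:40417897-40418146, - strand): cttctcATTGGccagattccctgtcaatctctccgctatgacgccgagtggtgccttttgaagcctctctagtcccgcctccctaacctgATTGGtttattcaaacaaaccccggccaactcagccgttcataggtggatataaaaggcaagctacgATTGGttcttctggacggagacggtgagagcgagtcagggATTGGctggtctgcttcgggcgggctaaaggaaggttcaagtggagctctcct
MKI67 promoter (chr10:128126424-128126673, - strand): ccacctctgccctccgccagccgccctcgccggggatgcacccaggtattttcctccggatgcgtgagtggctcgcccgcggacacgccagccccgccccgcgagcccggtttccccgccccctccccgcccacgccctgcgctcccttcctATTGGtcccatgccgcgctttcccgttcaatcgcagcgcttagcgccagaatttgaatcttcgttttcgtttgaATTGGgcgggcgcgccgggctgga
Of 52 interferon stimulated genes on the list, 42 matched a RefSeq promoter and 23 (54.8%) held the ISRE letters, against 3.07% of 27305 promoters in all. The letters were as common among matched members that passed the test (7 of 13, 53.8%) as among those that did not (16 of 29, 55.2%). Of 30 cell cycle genes 25 matched, and 19 (76.0%) held CCAAT, against 33.0% of all promoters. Of matched members that fell 10 of 11 (90.9%) held it, and of those that did not pass 9 of 14 (64.3%); this difference was not tested. TTTGAA, the core of the CHR element of cell cycle promoters, was in 8 of the 25 (32.0%), against 13.6% of all. A match describes letters, not a bound site.

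The 5 libraries held between 21534913 and 34170765 deposited counts. Values are CPM, counts scaled to library size, after TMM scaling over the 10 batch 2 libraries, and fold changes are log2 differences ± SE from the same fit, except where the 19-library fit is named. A gene was called at a Benjamini-Hochberg adjusted p below 0.05 in edgeR's quasi-likelihood test over all 20718 tested genes. The hepatocyte markers ALB, APOA1, APOB, SERPINA1, TTR, TF, FGB and HNF4A were all expressed. Their summed level was 16100, 17200 and 16900 CPM in BX795 and 10200 and 12800 CPM with ADAR siRNA. Most of this sum was ALB, APOB and SERPINA1. Of the 8 markers 2 were called, both lower. The groups overlapped for APOA1 and for TTR, which had 72.6, 66.6 and 67.2 CPM against 65 and 81.6 CPM. Summed biliary markers were 131, 113 and 121 CPM against 233 and 195 CPM, with EPCAM at 0 in all 5 libraries. Most of that difference was KRT19, while SOX9 had 36.9, 34.6 and 34.7 CPM against 38.5 and 37.5 CPM. The 6 immune markers summed to between 21.2 and 27.3 CPM in all 5 libraries, with CD3E at 0. The 5 endothelial markers summed to 655 to 718 CPM, nearly all of it KDR, and the 5 stellate or fibroblast markers to 46.8 to 50.5 CPM, with THY1 at 0. In bulk RNA, fewer cells of a type and less RNA per cell cannot be told apart.

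The siRNA lowered its target. ADAR (ENSG00000160710.19) stood at 273, 302 and 294 CPM in BX795 and at 56.1 and 59.9 CPM with ADAR siRNA. This was a fall of 2.32 ± 0.12 on the log2 scale with an edgeR adjusted p of 1.12e-05, the smallest of all tested genes. The siNC libraries of the batch held 215 to 266 CPM, and the IFNa libraries 839 and 742 CPM, ADAR being an interferon stimulated gene itself. ADARB1, the second catalytically active editor, had 49.5, 54.9 and 55.0 CPM against 47.8 and 45.2 CPM (-0.19 ± 0.09, adjusted p = 0.34 in edgeR). Of 13 tested genes of RNA editing, ADAR and RBM47, a cofactor of APOBEC1, fell, where 2.17% of all tested genes fell. RBM47 went from 58.4, 56.3 and 53.9 CPM to 39.7 and 43.7 CPM, and its call was lost when any 1 of the 5 libraries was left out.

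Across all genes, 758 of 20718 (3.66%) were called, 308 of them higher (1.49%) and 450 lower (2.17%). At least 2-fold changes were fewer among rises (61) than among falls (183). The call count depended on the number of libraries: it was 453, 331 and 337 without BX795 replicate 1, 2 or 3, and 181 and 329 without replicate 1 or 2 of BX795 with ADAR siRNA. The 2 libraries with ADAR siRNA differed more from each other than the BX795 libraries did, with a chi-square of their counts per gene (1 degree of freedom) of 64.7 against 5.9 to 26.9. Their GC trend, the median level of genes above 60% GC less that of genes below 40% relative to the batch 2 mean, was -0.01 and -0.48 on the log2 scale, against -0.19, -0.55 and -0.45 in BX795. Called rises had a median GC content of 51.2% and called falls of 46.8%, against 47.8% over all tested genes. With GC offsets 1866 genes were called. The balance turned with all 19 libraries in the fit (1170 higher, 1031 lower) and with no expression filter (666 higher, 621 lower). The median log2 fold change over all tested genes was 0.01.

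**Figure D1:**
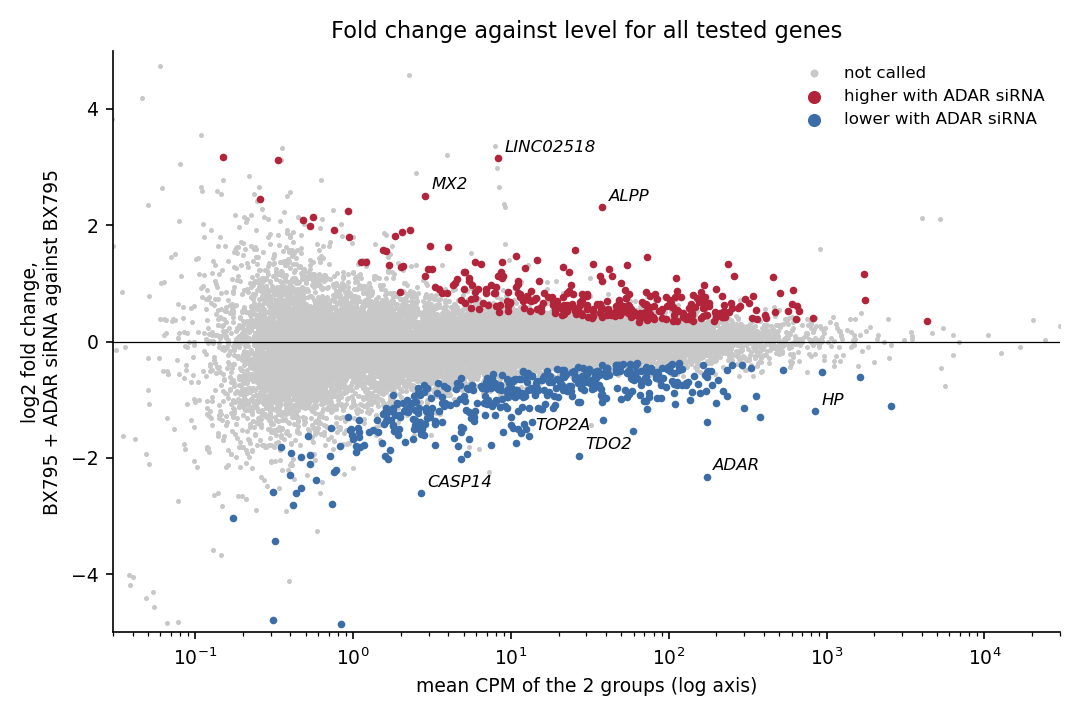
Each point is 1 tested gene, by mean CPM of both groups (log axis) and log2 fold change of BX795 with ADAR siRNA against BX795. Red points were called higher (308) and blue points called lower (450). Of the called genes, 5 lie beyond the axis limit of 5 on the log2 scale and are not drawn.

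A part of the interferon stimulated genes rose with ADAR siRNA. Of 52 members, all tested, 18 rose and 0 fell, where 1.49% of all tested genes rose. Their median log2 fold change was 0.36 (0.01 over all tested genes). In 38 of them every library with ADAR siRNA lay above every BX795 library, which held for 18.2% of all tested genes. The count of rises was 11, 9 and 8 without BX795 replicates 1, 2 and 3, and 10 and 9 without replicates 1 and 2 of BX795 with ADAR siRNA.

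The antiviral GTPase MX2 had the clearest rise of the list. It went from 0.79, 0.764 and 0.99 CPM to 4.61 and 5.18 CPM (2.51 ± 0.19, edgeR adjusted p = 0.000174). The siNC libraries held 2.15 to 3.36 CPM and the IFNa libraries 180 and 163 CPM, so BX795 alone sat below the control and the rise ended far below interferon treatment. MX1 had 13.3, 10.7 and 13.4 CPM in BX795 and 32.4 and 28.5 CPM with ADAR siRNA (1.29 ± 0.13), against 787 and 802 CPM in IFNa. IFIT1, which binds foreign RNA by its end, rose from 5.06, 5.17 and 5.28 CPM to 11.2 and 11.4 CPM (1.13 ± 0.12). IFI27 rose from 8.41, 6.48 and 6.77 CPM to 18.2 and 16.4 CPM (1.27 ± 0.14). For each of these genes the groups did not overlap, and each stayed called whichever library was left out.

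The OAS enzymes make the oligoadenylate that activates RNase L. OAS2 rose from 14.6, 17.0 and 17.0 CPM to 31.8 and 32.1 CPM (0.98 ± 0.10, adjusted p = 0.00065 in edgeR), and OAS1 from 5.99, 9.09 and 6.57 CPM to 14 and 16 CPM. OAS3 rose by 0.77 on the log2 scale, and OASL, an OAS-like gene to which the enzyme function above is not ascribed, by 1.57. OAS1 and OAS2 stayed called whichever library was left out. OAS3 was lost without BX795 replicate 3 or replicate 1 with ADAR siRNA, and OASL without replicate 2 with ADAR siRNA.

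Of the factors that carry the interferon signal to DNA, IRF9 rose from 11.8, 10.4 and 12.8 CPM to 20.5 and 21 CPM (0.83 ± 0.12). It was called in every fit that left out 1 library. IRF7, which amplifies interferon gene transcription, had 5.06, 2.47 and 3.5 CPM against 8.22 and 6.46 CPM (1.01 ± 0.25, edgeR adjusted p = 0.05 after rounding). It stayed called in 1 of the 5 fits that left out a library. STAT2 had a log2 difference of -0.17 and did not pass.

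Other rises were less firm. XAF1, PARP12, HERC6, IFI44 and IFIT2 rose by 0.56, 0.43, 0.58, 0.51 and 0.63 on the log2 scale, and none of the 5 stayed called in more than 2 of the 5 fits that left out 1 library. IFI44L, at 441 and 373 CPM in IFNa, had 6.23, 6.84 and 6.07 CPM in BX795 and 11.1 and 8.45 CPM with ADAR siRNA (0.61 ± 0.14). It stayed called in 1 of those 5 fits, and it was not called with all 19 libraries in the fit or with the 5 compared libraries alone. CMPK2 was counted 2 times over the 3 BX795 libraries and 16 times over the 2 with ADAR siRNA, a ratio of 10.6 (95% exact interval 2.5 to 95.4, counting error only). IFITM1 rose from 0.0465, 0.109 and 0.066 CPM to 0.461 and 0.417 CPM (2.45 on the log2 scale), also on few counts. The calls of CMPK2 and IFITM1 were lost whichever library was left out, and that of CMPK2 also with all 19 libraries in the fit.

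Several classic members did not pass the test. ISG15, the ubiquitin-like modifier, had 12.8, 10.3 and 10.6 CPM against 29.1 and 16.5 CPM (1.02 ± 0.29, edgeR adjusted p = 0.0864), and IFI6 had 23.9, 17.2 and 19.3 CPM against 53.6 and 31.9 CPM (1.09 ± 0.33, adjusted p = 0.111). In both, the groups did not overlap, but the 2 libraries with ADAR siRNA were far apart. RSAD2 (viperin) was counted 5 and 18 times in all, a ratio of 4.79 (95% exact interval 1.71 to 16.5, counting error only; edgeR adjusted p = 0.227).

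**Figure D2:**
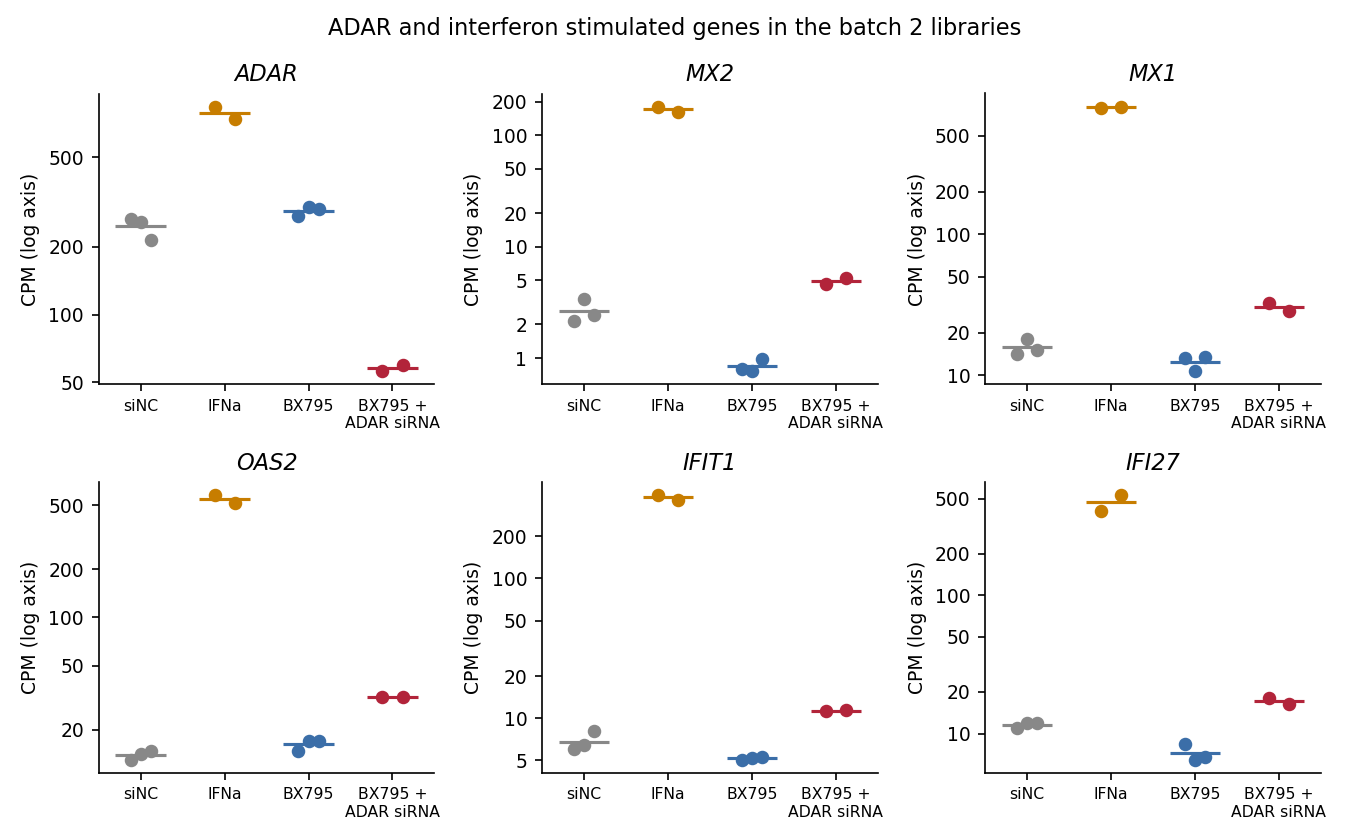
CPM on a log axis for ADAR and 5 interferon stimulated genes; each point is a batch 2 library and each line the group mean. The 2 libraries of BX795 with ADAR siRNA lie below all others for ADAR, and above the 3 BX795 libraries but far below IFNa for MX2, MX1, OAS2, IFIT1 and IFI27.

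The sensors and the relay above these targets held few calls. Of 15 tested nucleic acid sensors and adaptors, 1 rose: STING1, the adaptor of cGAS, from 7.9, 8.08 and 7.62 CPM to 12.0 and 10.8 CPM (0.53 ± 0.11), a call lost whichever library was left out. Over all tested genes 1.49% rose. DESeq2 called 2 of the 15, and 5 had an unadjusted p below 0.05 in edgeR. Fold changes were above 0 in 12 of the 15, with a median of 0.24 on the log2 scale. MDA5 (IFIH1) had 23.5, 22.2 and 20.4 CPM against 25.3 and 28.9 CPM (0.30 ± 0.10, edgeR adjusted p = 0.142). RIGI had a log2 difference of 0.44 ± 0.16 and EIF2AK2 of 0.37 ± 0.11, neither called. ZBP1 was counted once in each group.

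Of 13 tested genes of the TBK1 relay, edgeR called 0 and DESeq2 0, and 3 had an unadjusted p below 0.05 in edgeR. TBK1 had 30.3, 36.9 and 33.4 CPM against 25.1 and 28.6 CPM (-0.32 ± 0.13), and IKBKE, which encodes IKK epsilon, had 22.4, 21.9 and 22.1 CPM against 22.5 and 23.4 CPM. Interferon genes themselves were at or near 0. IFNB1 was counted once over the BX795 libraries and 0 times with ADAR siRNA, IFNL1 once in each group, and 9 of the 15 interferon genes had no count in any of the 5 libraries. A count of 0 in a library allows up to 3 counts. IFNE alone was tested, with 187 and 96 counts, and was not called.

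Outside the interferon targets, inflammatory genes held few calls. Of 24 tested NF-kB targets and chemokines, 1 rose and 1 fell, where 1.49% of all tested genes rose and 2.17% fell. Fold changes were above 0 in 18 of the 24, with a median of 0.16. In 7 the groups did not overlap in the higher direction and in 2 in the lower, against 18.2% and 17.9% of all tested genes. CCL2, the monocyte chemokine, rose from 106, 110 and 95.9 CPM to 153 and 210 CPM (0.80 ± 0.15), a call lost without BX795 replicate 3 or replicate 2 with ADAR siRNA. IL6 fell from 26.0, 24.9 and 25.3 CPM to 10.5 and 12.6 CPM (-1.14 ± 0.16), a call lost without replicate 1 with ADAR siRNA. CXCL10, a chemokine downstream of both interferon and NF-kB, had overlapping groups, with 18.6, 17.6 and 16 CPM against 13 and 20 CPM. Of 19 tested genes of MHC class I presentation, edgeR called 0 and DESeq2 0, and 2 had an unadjusted p below 0.05. Their median log2 difference was 0.15.

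Cell cycle genes were lower with ADAR siRNA. Of 30 members, all tested, 12 fell and 0 rose, where 2.17% of all tested genes fell. Their median log2 fold change was -0.90. In 25 of them every library with ADAR siRNA lay below every BX795 library, which held for 17.9% of all tested genes. The count of falls was 8, 7 and 10 without BX795 replicates 1, 2 and 3, and 5 and 9 without replicates 1 and 2 with ADAR siRNA.

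TOP2A, the topoisomerase that untangles replicated DNA, fell from 19.4, 21.1 and 18.0 CPM to 5.57 and 7.08 CPM (-1.62 ± 0.14, edgeR adjusted p = 0.00042). The proliferation marker MKI67 fell from 21, 19.7 and 18.3 CPM to 6.53 and 8.45 CPM (-1.39 ± 0.15). BIRC5 (survivin), a subunit of the chromosomal passenger complex, fell from 3.07, 2.62 and 2.31 CPM to 0.576 and 0.714 CPM (-2.02 ± 0.25). The siNC libraries stood higher than BX795 for all 3 genes, at 27.5 to 34.0 CPM for TOP2A, so the lowest levels of batch 2 were those of BX795 with ADAR siRNA. RRM2, a subunit of ribonucleotide reductase, fell by 1.74 on the log2 scale and, like these 3, stayed called whichever library was left out.

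The other falls covered the mitotic kinases CDK1 (-1.61) and AURKB (-1.34), the checkpoint kinase BUB1 (-1.39), the cyclin CCNA2 (-1.17), the licensing factor CDT1 (-1.36), CDC20 (-1.54), CENPF (-1.05) and E2F1 (-1.05). CDK1, CCNA2 and CENPF were lost without replicate 1 with ADAR siRNA, and BUB1 without that library or BX795 replicate 2. AURKB, CDT1 and CDC20 stayed called in 1 of the 5 fits that left out a library and E2F1 in 0. Of 21 tested p53 targets, edgeR called 0 and DESeq2 0, and 3 had an unadjusted p below 0.05. CDKN1A, the cell cycle inhibitor p21, had 271, 271 and 272 CPM against 338 and 305 CPM (0.24 ± 0.09, adjusted p = 0.211).

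**Figure D3:**
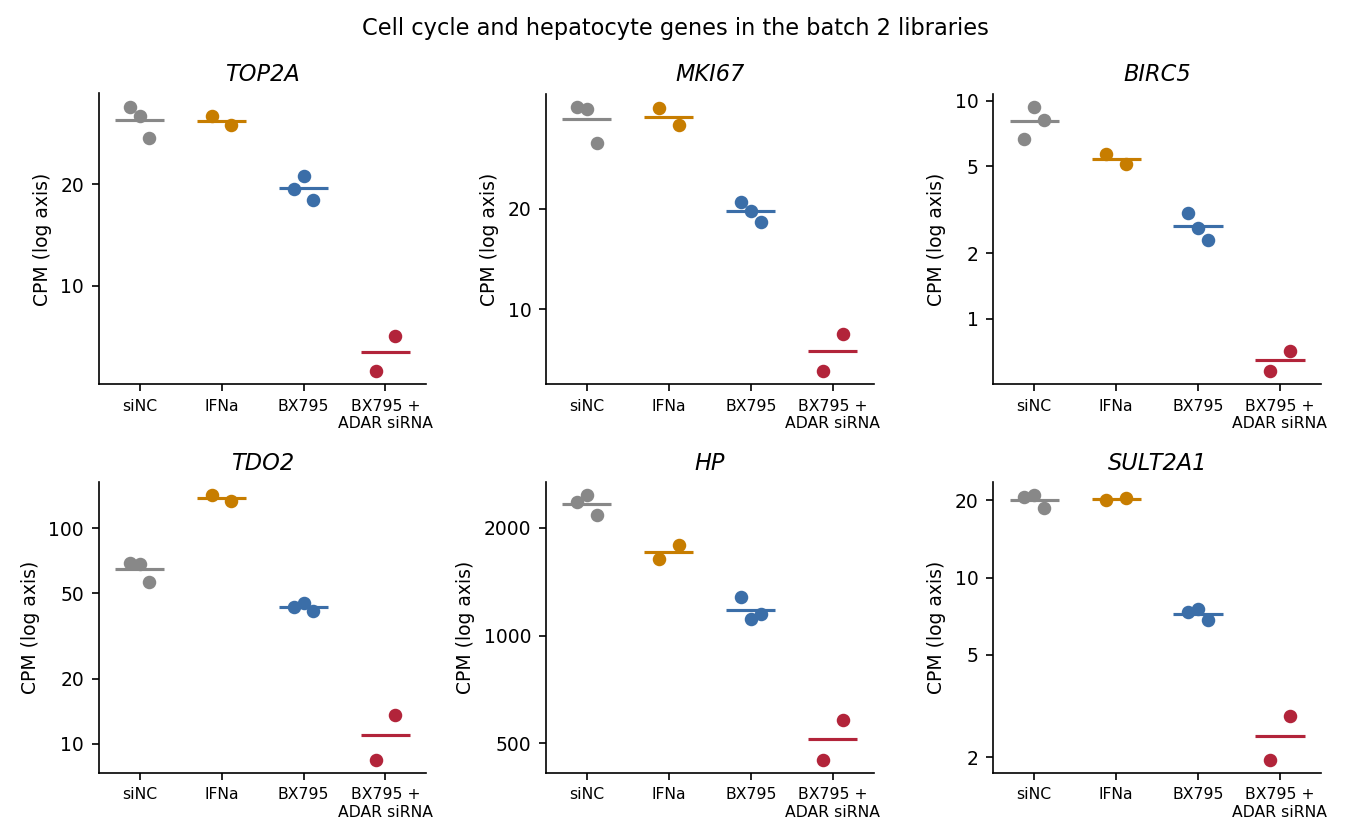
CPM on a log axis for 3 cell cycle and 3 hepatocyte genes; each point is a batch 2 library and each line the group mean. In all 6 panels the 2 libraries of BX795 with ADAR siRNA are the lowest, below the 3 BX795 libraries.

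Hepatocyte products were lower as well. Of 40 tested secreted and metabolic hepatocyte genes, 10 fell and 0 rose, with a median of -0.50, and 30 had no overlap between the groups in the lower direction. Over all tested genes 2.17% fell and 17.9% had no such overlap. Of 22 tested acute phase genes 9 fell and 0 rose, with a median of -0.59. These counts rested on replicate 1 with ADAR siRNA, without which they were 3 and 2. Without any other library they were 8 to 9 and 7 to 11.

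TDO2, the first enzyme of tryptophan breakdown, fell most clearly, from 43.1, 45.0 and 41.2 CPM to 8.45 and 13.6 CPM (-1.96 ± 0.18, edgeR adjusted p = 0.000427). MTTP, which loads lipid onto apolipoprotein B, fell from 19.9, 21.7 and 19.3 CPM to 7.68 and 10.7 CPM. FABP1, the liver fatty acid binding protein, was already low at 1.12, 1.2 and 1.09 CPM and fell to 0.307 and 0.268 CPM, a call lost without either library with ADAR siRNA. ALB itself had 6340, 5900 and 5990 CPM against 4020 and 4900 CPM, without overlap, and did not pass (-0.45 ± 0.11, adjusted p = 0.0568 in edgeR).

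The 3 fibrinogen chains fell together. FGA went from 466, 484 and 447 CPM to 215 and 274 CPM (-0.93 ± 0.13), FGB fell by 0.94 and FGG by 1.05 on the log2 scale. FGB and FGG were lost without replicate 1 with ADAR siRNA. Among acute phase proteins, HP, the hemoglobin carrier, fell from 1280, 1110 and 1150 CPM to 450 and 580 CPM (-1.19 ± 0.13, edgeR adjusted p = 0.00065), and SAA4 fell by 1.01. CRP fell from 4.09, 3.89 and 3.96 CPM to 1.46 and 2.08 CPM (-1.15 ± 0.19), again lost without replicate 1 with ADAR siRNA. The complement genes C4B, C4BPA, C5 and CFB fell by 0.85, 0.91, 0.91 and 0.61, all 4 lost without that library, and C4B also without BX795 replicate 2. C4B shares reads with its near-identical copy C4A, so its value is uncertain.

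Pharmacogenes, which the series names in its title, were mostly lower or not called. Of 128 listed, 111 were tested. Of those, 16 fell, 4 rose and 91 did not pass, with a median of -0.19, where 2.17% of all tested genes fell and 1.49% rose. The count of falls was 8 without replicate 1 with ADAR siRNA and 11 to 14 without any other single library.

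Among phase I enzymes (46 tested), 6 fell and 4 rose, against 2.17% and 1.49% of all tested genes. CYP2C18 fell from 16.6, 15.8 and 16.2 CPM to 6.57 and 8.21 CPM (-1.13 ± 0.14, edgeR adjusted p = 0.00159), and CYP2C8 fell by 1.46 on the log2 scale. CYP2C19 had a log2 difference of -1.27 and did not pass (adjusted p = 0.0632 in edgeR). PON1, the paraoxonase carried on HDL, fell from 17.9, 17.4 and 16.5 CPM to 5.07 and 6.43 CPM (-1.58 ± 0.17). The alcohol dehydrogenases ADH4 and ADH6 fell by 1.55 and 0.96. CYP2C8, ADH4 and ADH6 were lost without replicate 1 with ADAR siRNA, ADH4 also without replicate 2, and ADH6 also without BX795 replicate 2 or 3.

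The 4 rises were ALDH3A1, from 23.5, 21.7 and 23.7 CPM to 56.6 and 44.1 CPM (1.13 ± 0.14), MAOB (0.61), CYP4F11 (0.45) and EPHX1 (0.42). ALDH3A1 stayed called whichever library was left out. MAOB stayed called in 2 of 5 such fits, and CYP4F11 and EPHX1 in 0. CYP3A4, the main drug-oxidising P450 of liver, had 70.8, 87.6 and 74.8 CPM against 90.2 and 131 CPM (0.51 ± 0.16, edgeR adjusted p = 0.125), against 1.38 to 1.88 CPM in the siNC libraries of the same batch. CYP2E1, CYP2B6 and CYP1A2 had log2 differences of -0.85, -0.43 and 0.91 and none passed.

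Of 40 tested phase II enzymes, 7 fell and 0 rose, against 2.17% and 1.49% of all tested genes. SULT2A1, the sulfotransferase of bile acids and DHEA, fell from 7.34, 7.53 and 6.86 CPM to 1.96 and 2.89 CPM (-1.56 ± 0.17), and GSTA1 from 88.9, 86.9 and 83.5 CPM to 56.9 and 54.8 CPM (-0.63 ± 0.08). Both stayed called whichever library was left out. SULT1B1, SULT1C2, GLYAT, UGT2B4 and UGT1A9 fell by 1.05, 0.71, 1.51, 0.83 and 0.40, and each was lost without at least 1 library. UGT1A1, which conjugates bilirubin, had 123, 121 and 124 CPM against 112 and 106 CPM and did not pass. UGT1A genes share their 3' exons, so counts can be split between them uncertainly.

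Of 23 tested transporters, 3 fell and 0 rose, against 2.17% and 1.49% of all tested genes. ABCB1 (P-glycoprotein) fell from 66.6, 69.2 and 63.2 CPM to 28.0 and 39.3 CPM (-0.98 ± 0.13, edgeR adjusted p = 0.00254). ABCB4, the phospholipid exporter of bile, fell by 1.31 ± 0.18 and ABCG8, a sterol exporter, by 1.5 ± 0.19. All 3 stayed called whichever library was left out.

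Among 32 tested nuclear receptors and liver transcription factors, 3 fell and 1 rose, against 2.17% and 1.49% of all tested genes. HNF4A, a master regulator of hepatocyte genes, fell from 73.3, 75.2 and 80.8 CPM to 47.5 and 52.2 CPM (-0.62 ± 0.12), NR1H4, the bile acid receptor FXR, by 0.84 and NR2F1 by 0.47. VDR, the vitamin D receptor, rose by 0.56. None of the 4 stayed called in more than 1 of the 5 fits that left out a library. NR1I2, the drug sensor PXR, had 4.83, 3.56 and 3.5 CPM against 1.46 and 2.41 CPM and did not pass (-1.01 ± 0.26, edgeR adjusted p = 0.0635).

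In bile acid synthesis 3 of 17 tested genes fell and 0 rose, against 2.17% and 1.49% of all tested genes. AKR1D1 went from 6.69, 4.07 and 4.62 CPM to 1.5 and 1.49 CPM (-1.77 ± 0.26), and CYP8B1 and AKR1C4 fell by 1.18 and 1.07. AKR1D1 stayed called whichever library was left out. CYP7A1, the rate-limiting enzyme, was counted only 14 and 10 times in all, a ratio of 0.95 (95% exact interval 0.377 to 2.3, counting error only).

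Some biliary and matrix genes rose, where 1.49% of all tested genes rose and 2.17% fell. Of 12 tested biliary and progenitor markers, 2 rose and 0 fell: KRT19, from 79.3, 63.3 and 71.5 CPM to 170 and 134 CPM (1.09 ± 0.17), and SPP1 (osteopontin), from 4.83, 5.49 and 5.48 CPM to 11.7 and 12.4 CPM (1.19 ± 0.15). KRT19 was lost without replicate 1 with ADAR siRNA. Of 21 tested mesenchymal and matrix genes, 3 rose and 1 fell. CCN2, a matricellular protein, rose from 359, 359 and 372 CPM to 710 and 594 CPM (0.84 ± 0.11, edgeR adjusted p = 0.00192), and CCN1 rose by 0.38. SPP1 and CCN2 stayed called whichever library was left out, and CCN1 in 0 of those 5 fits. COL3A1 fell by 1.04, a call kept in 1 of the 5 fits that left out a library. The biliary marker sum given above moved with the fall in hepatocyte genes, and its part in that fall was not tested.

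Stress and lipid lists held few calls. Of 18 tested chaperones of the unfolded protein response 1 rose (PDIA4, 0.65), and of 17 tested targets of the integrated stress response 1 rose (STC2, 0.52). Fold changes were above 0 in 15 of the 18 chaperones and in 12 of the 17 targets. The groups did not overlap in the higher direction in 10 and 5 of them, against 18.2% of all tested genes. PDIA4 was lost without either library with ADAR siRNA and STC2 whichever library was left out. Of 23 tested cholesterol genes 3 rose, among them SQLE (0.52) and FDPS (0.39), and 0 fell, where 1.49% of all tested genes rose. In 17 of the 23 the groups did not overlap in the higher direction, against 18.2% of all tested genes. All 3 calls were lost whichever library was left out. Of 19 tested MAP kinase feedback genes DUSP4 and DUSP5 rose, by 0.75 and 0.70, and stayed called in 0 and 1 of the 5 fits that left out a library. Fold changes were above 0 in 18 of the 19, and in 11 the groups did not overlap in the higher direction. Of 11 tested FOXO and AKT responsive genes 2 rose and 0 fell. Fold changes were above 0 in only 4 of the 11, with a median of -0.08. IGFBP1 rose from 8.64, 8.11 and 7.16 CPM to 24.5 and 18.0 CPM, a call kept in 2 of the 5 fits that left out a library. CITED2 rose by 0.67, a call lost without replicate 1 with ADAR siRNA.

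**Figure D4:**
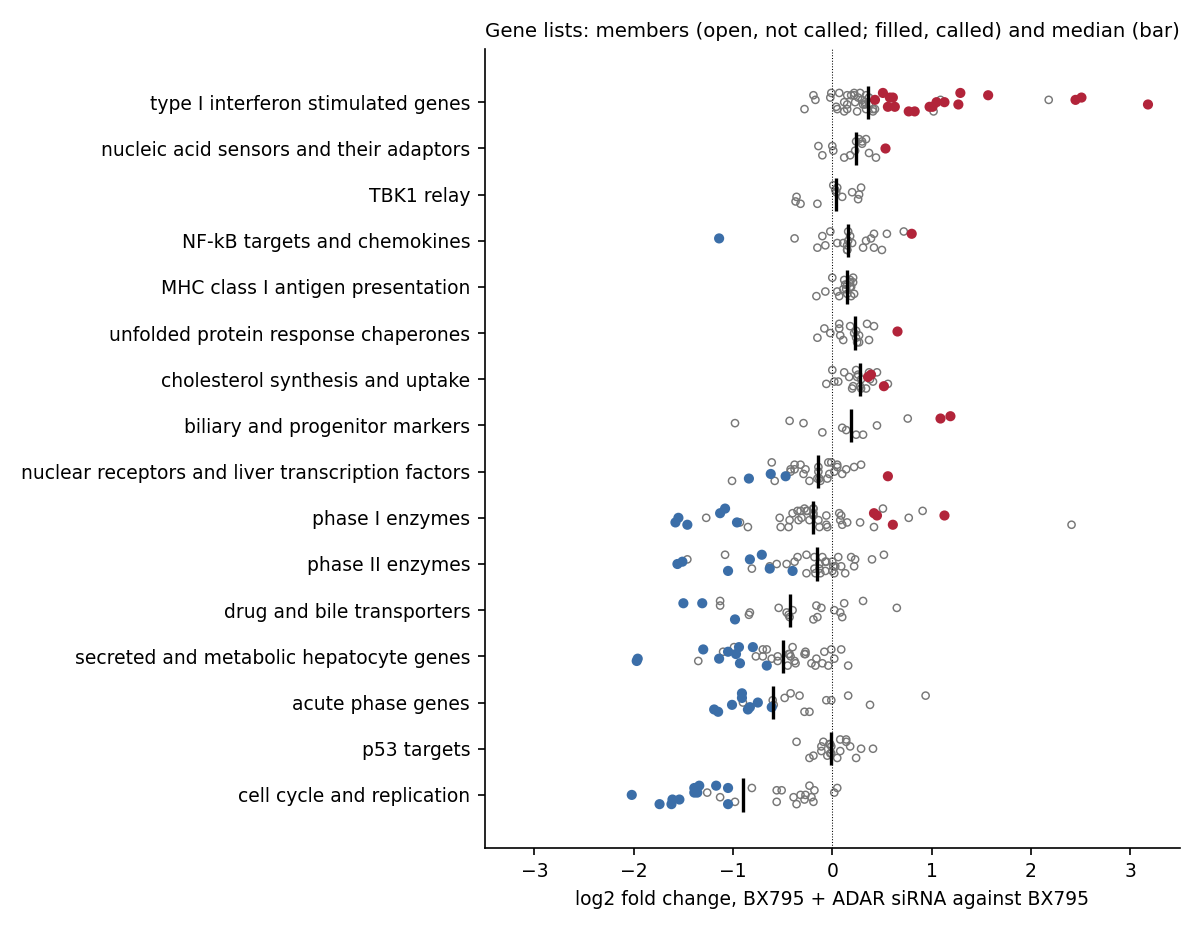
Log2 fold change of BX795 with ADAR siRNA against BX795 for the tested members of 16 gene lists. Filled points were called (red higher, blue lower), open points were not, and the bar is the median: 0.36 for interferon stimulated genes, -0.90 for cell cycle genes and -0.59 for acute phase genes.

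Of the 8 largest called rises with a symbol, a mean of at least 1 CPM and no overlap, MX2 alone was on a list. The interferon stimulated genes CMPK2 and IFITM1 rose by 3.18 and 2.45 on the log2 scale but lay below 1 CPM. LINC02518, a long noncoding RNA, rose from 0.743, 2.22 and 1.95 CPM to 13.7 and 16.1 CPM (3.15 ± 0.31, edgeR adjusted p = 0.000546). ALPP, placental alkaline phosphatase, rose from 13.6, 11.8 and 12.6 CPM to 70.8 and 55.3 CPM (2.31 ± 0.15). ALPP stood at 128 to 176 CPM in the siNC libraries; the libraries with ADAR siRNA lay between these and BX795 alone. The imprinted noncoding RNA H19 had the same order of groups, with 11.0 to 17.1 CPM in siNC, 1.12, 1.05 and 0.726 CPM in BX795 and 4.26 and 2.98 CPM with ADAR siRNA. H19 was lost without replicate 1 with ADAR siRNA.

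TUBA3E and TUBA3D, near-identical alpha tubulin copies whose reads may be split uncertainly, rose by 1.89 and 1.65, and the keratin KRT4 by 1.62. LINC02518, ALPP, TUBA3E, TUBA3D and KRT4 stayed called whichever library was left out. FGFBP1, a carrier of fibroblast growth factors, rose from 0.418, 0.255 and 0.297 CPM to 1.5 and 1.58 CPM (2.25 ± 0.52), a call lost whichever library was left out.

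Of the largest falls besides ADAR, BIRC5 and FABP1, CASP14, a caspase of epidermal differentiation, went from 4.23, 4.77 and 4.85 CPM to 0.998 and 0.536 CPM (-2.61 ± 0.30). FAM20A, a partner of the secretory kinase FAM20C, went from 7.99, 6.8 and 8.38 CPM to 1.73 and 2.05 CPM (-2.02 ± 0.21). Both stayed called whichever library was left out. RDH16, a retinol dehydrogenase, and the chemokine receptor CCR2 fell by 2.80 and 2.24 from levels near 1 CPM, and both were lost without replicate 1 with ADAR siRNA. A GTF2IP1 entry (ENSG00000277053.5) had 811 counts in BX795 and 0 with ADAR siRNA, at least 203-fold lower taking 3 counts over the group as the floor. The pseudogene's symbol belongs to another entry as well, which had 5385 and 4492 counts, and the first was also at 0 in all siNC libraries of the batch. Counting can split reads between such copies, so this fall is uncertain, and it was not called with all 19 libraries in the fit.

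The response to ADAR siRNA was set beside that without BX795, in 1 fit of all 19 libraries, and CPM in this comparison are TMM scaled over those 19. The 2 contrasts share no library, but BX795 came with batch 2 and its absence with batch 1, so the inhibitor and the batch cannot be told apart. Control levels of liver genes also differed by batch. ALB had 41600, 43800 and 42000 CPM in batch 1 siNC and 6780, 7590 and 6230 CPM in batch 2 siNC. FABP1 had 172, 193 and 179 CPM against 2.37, 2.74 and 1.85 CPM. In that fit 2201 of 23121 genes were called in BX795 (5.06% higher, 4.46% lower) and 5042 without it (11.0% higher, 10.8% lower). Both called 1414 in the same direction, which is 64.2% of the first list and 28.0% of the second, and 107 in opposite directions. The difference between the responses itself was called for 790 genes (3.42%), 328 of them more positive in BX795 (1.42%) and 462 more negative (2.00%).

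Interferon stimulated genes were among those that differed. Without BX795, 48 of the 52 rose, with a median of 1.31. In BX795 21 rose and 1 fell in the same fit, with a median of 0.37. The difference was called for 30 of 52, all of them lower in BX795, where 2.00% of all tested genes were. IFI44L had the smallest p of the named members: 1.29, 1.9 and 1.47 CPM rose to 24.2, 28.9 and 39.2 CPM without BX795 (4.33 ± 0.19). Its response in BX795 was 0.62 in this fit and was not called (edgeR adjusted p = 0.0546), and the difference was -3.71 ± 0.27 (edgeR adjusted p = 6.67e-07). MX1 differed by -2.31 ± 0.22, MX2 by -2.04 ± 0.37, OAS2 by -1.93 ± 0.17 and IFIT1 by -1.64 ± 0.24. For ADAR itself the difference was -0.29 and was not called (adjusted p = 0.266 in edgeR).

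Cell cycle genes had opposite directions. Without BX795 19 of the 30 rose and 0 fell, with a median of 0.39, and in BX795 18 fell and 0 rose in the same fit, with a median of -0.87. The difference was called for 24 of 30, all lower in BX795, where 2.00% of all tested genes were. TOP2A stood at 45.9, 44.8 and 51.2 CPM in batch 1 siNC and at 60.2, 65.3 and 62.5 CPM in siADAR, a rise of 0.41 ± 0.09, and its difference between the responses was -2.0 ± 0.15. MKI67 differed by -1.82 ± 0.16 and BIRC5 by -2.60 ± 0.25.

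Among pharmacogenes the difference was called for 19 of 119 tested, against 3.42% of all tested genes. Of the 19, 10 were more positive and 9 more negative in BX795. CYP3A4 rose without BX795 from 228, 236 and 210 CPM to 1050, 1010 and 1110 CPM (2.24 ± 0.11). In BX795 it rose by 0.52 in this fit (edgeR adjusted p = 0.00913), and the difference was -1.71 ± 0.17 (edgeR adjusted p = 1.04e-05). Haptoglobin had 8010, 7930 and 7590 CPM against 6350, 6850 and 6980 CPM without BX795, not called, and HP differed by -0.96 ± 0.13. TDO2 fell without BX795 as well (-1.64), and its difference of -0.30 was not called.

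**Figure D5:**
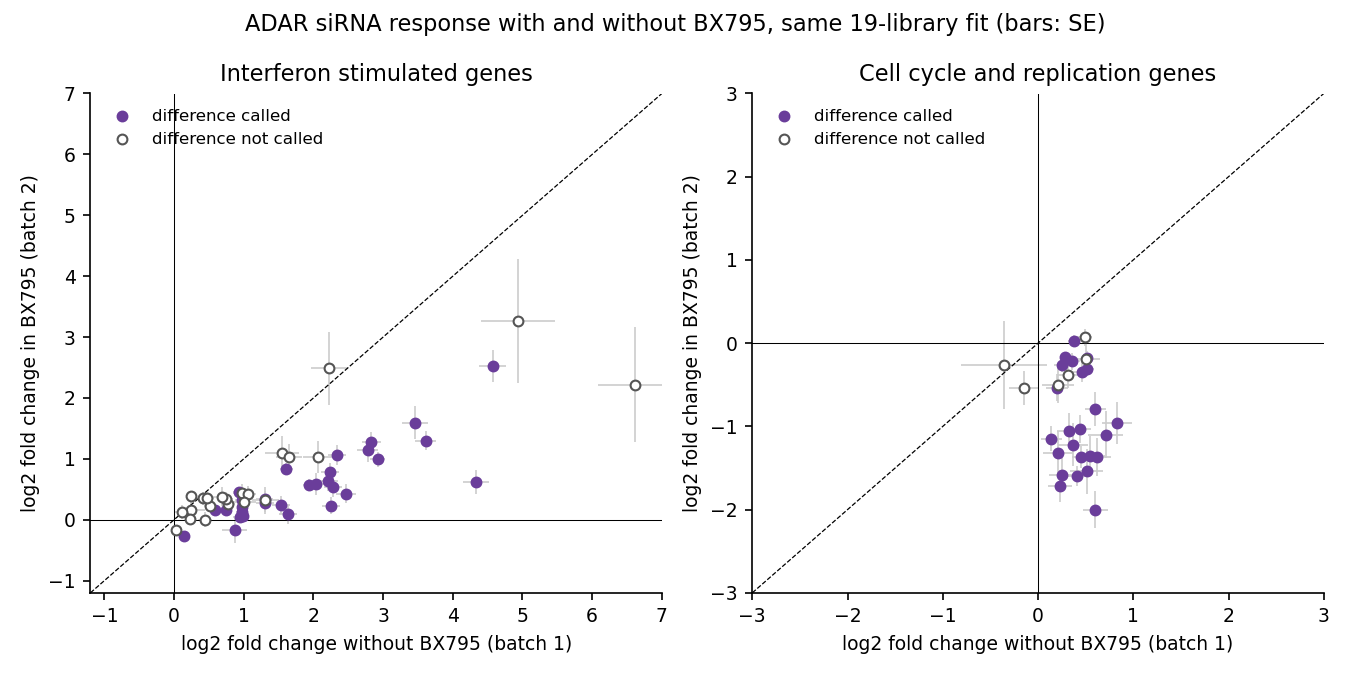
Log2 fold change with ADAR siRNA without BX795 (x axis, batch 1) against that in BX795 (y axis, batch 2), from the same 19-library fit with SE bars; filled points have a called difference. Interferon stimulated genes (left, 30 of 52 called) lie for the most part below the dashed line of equal response, and cell cycle genes (right, 24 of 30) lie right of 0 on the x axis and below 0 on the y axis for the most part.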

How the data were processed

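RNA of differentiated HepaRG cells was sequenced, and the authors deposited 1 table of expected counts for 78894 genes in 19 libraries. Per the submitters' processing notes, STAR, Salmon and GRCh38.p14 were used; those sources state no tool version, annotation or strand setting. Of the deposited values, 94.82% lay within 0.005 of a whole number, and all were rounded. Symbols came from a separate reference of gene names, matched by ID without version, and were found for 61463 genes. Groups and batches came from the labels. edgeR 4.0.16 (R 4.3.3) with TMM scaling, filterByExpr and quasi-likelihood F tests was fitted to the 10 batch 2 libraries with 1 mean per group (6 residual degrees of freedom), and p-values were adjusted by Benjamini-Hochberg over all tested genes. The difference between responses was tested in all 19 libraries (12 residual degrees of freedom). Tested on simulated counts for 20718 genes, the fit recovered 81% of 100 genes changed by 1 and 99% of 100 changed by 2 on the log2 scale, and called 9 of 19803 unchanged genes. Every simulated gene had the same spread, with no GC trend and no shift between replicates. Changed genes were drawn only from those with higher counts, so these rates may not hold in the real libraries. Promoters came from RefSeq. The compared groups and the 29 gene lists were chosen with earlier results of these data known. Named genes are ADAR and ADARB1, the 8 largest called rises and falls with a symbol, a mean of at least 1 CPM and no overlap, the 3 called members per list with the smallest p, and a fixed set of interferon, sensor and liver genes; other called list members appear with their list. Some genes under these rules are not reported here. Alternatives were DESeq2 1.42.0, other scaling, filters, libraries, GC offsets, a replicate block and leaving out each library.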

Additional observations from a re-analysis of the deposited data

Results flagged for a closer look

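Named genes whose response to ADAR siRNA in BX795 differed from that without BX795 are listed here, with the difference between the 2 log2 fold changes (in BX795 minus without), each called by edgeR's test of the difference itself at an adjusted p below 0.05 in the 19-library fit. BX795 and batch 2 cannot be told apart in any of them. Among interferon targets and related genes the difference was -3.71 for IFI44L, -2.31 for MX1, -2.04 for MX2, -1.93 for OAS2, -1.64 for IFIT1, -1.55 for IFI27 and -1.27 for OAS1. In that fit all 7 rose without BX795, and all but IFI44L were called higher in BX795 too, by less. RIGI (-1.66) and IFIH1 (-0.72) were not called in BX795 in that fit and rose without it. EIF2AK2 (-0.52) rose in both, by 0.39 in BX795 and 0.90 without it. The chemokines CXCL10 and CCL2 differed by -2.14 and -1.28.

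The cell cycle genes BIRC5, TOP2A and MKI67 differed by -2.60, -2.0 and -1.82, falling in BX795 and rising without it. Liver genes with a more negative response in BX795 were FABP1 (-1.82), CYP3A4 (-1.71), AKR1D1 (-1.41), CYP2E1 (-1.15), CYP2C18 (-0.96), HP (-0.96), SULT2A1 (-0.93), CRP (-0.87), FGA (-0.82) and ABCG8 (-0.72). FAM20A (-1.51) did the same. LINC02518 (2.00), ALPP (0.90), CITED2 (0.53), NR2F1 (0.50) and GSTA1 (0.37) had a more positive response in BX795. For the genes named here, no difference changed sign under the alternatives run, and up to 5 of them were no longer called when 1 library was left out.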

How the results depend on the processing

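The fall of ADAR stayed called under every alternative run and in the 5 fits that left out 1 library (log2 -2.37 to -2.29). With the 758 called genes (308 higher, 450 lower) as the base, all 19 libraries in the fit gave 2201 (1170 higher, 1031 lower), DESeq2 1276 (566, 710), no expression filter 1287 (666, 621) and GC offsets 1866 (850, 1016); of the last, 755 were among the 758. Higher calls were 53.2% of all calls with 19 libraries and 51.7% with no filter, the only settings run in which they were the larger part. Leaving out 1 library gave 181 to 453 called (79 to 178 higher, 102 to 275 lower). The lists gave 8 to 11 interferon stimulated genes higher, and 8 to 14 pharmacogenes, 5 to 10 cell cycle, 3 to 9 hepatocyte and 2 to 11 acute phase genes lower in those fits. Lower pharmacogenes were 32 with all 19 libraries, 25 with the 5 compared libraries alone, 27 in DESeq2 and 29 with GC offsets, and lower hepatocyte genes 19 with all 19 libraries and 19 with GC offsets. The difference between responses was called for 1211 genes in DESeq2, 1400 with GC offsets and 384 to 744 with 1 library left out, of 790; interferon stimulated genes lower in it were 26 to 31 and cell cycle genes 20 to 24 in those fits. Replicate numbers are shared by 2 pairs of the compared libraries, whose deviations from the group means correlated at 0.30 each, and the labels give no pairing. With the replicate block 282 genes were called (98 higher, 184 lower), 7 interferon stimulated genes were higher, and the difference between responses was called for 459. Uncalled values changed sign for IKBKE (-0.04 with GC offsets, -0.06 with GC offsets and the replicate block), CXCL10 (0.18 without replicate 1 with ADAR siRNA; -0.43 to 0.18 with 1 library left out) and CYP7A1 (0.73 without BX795 replicate 2, 0.10 without replicate 2 with ADAR siRNA; -0.62 to 0.73). The cause of these changes was not tested. Depth limits genes with few counts, such as CMPK2, RSAD2, LYZ and CYP7A1.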

Other observations

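Some gene families outside the lists were gathered after their values were seen and are given as description with no test of the family. Of 18 tested tubulins, the subunits of microtubules, 8 rose and 0 fell with ADAR siRNA in BX795, where 1.49% of all tested genes rose and 2.17% fell. Without any 1 library 6 to 7 rose: TUBB2A was lost in each of these fits, TUBB4B without replicate 1 and TUBA1B without replicate 2 with ADAR siRNA. TUBA1A rose from 12.2, 12.9 and 13.2 CPM to 38.9 and 36.7 CPM (1.57 on the log2 scale), TUBA1C from 129, 124 and 134 CPM to 211 and 202 CPM, and TUBA4A from 89.7, 84 and 91.7 CPM to 156 and 143 CPM. The groups did not overlap in these 3 genes. Of 33 tested kinesins, the motors that run on microtubules, 7 fell and 1 rose. The falls were 1 without replicate 1 and 3 without replicate 2 with ADAR siRNA, and 4, 3 and 4 without BX795 replicates 1, 2 and 3. KIF20A, a mitotic member, went from 3.21, 3.6 and 3.04 CPM to 0.96 and 1.01 CPM, and KIF3C rose from 2.46, 3.24 and 3.14 CPM to 6.14 and 5.68 CPM; both were lost without either library with ADAR siRNA. KIF26B alone stayed called whichever library was left out.

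Of 25 tested complement and factor H related genes 11 fell and 0 rose (median -0.85). Of 20 tested coagulation genes 7 fell and 0 rose (median -0.57). Over all tested genes 2.17% fell and 1.49% rose. Both families share members with the lists of the report. Without replicate 1 with ADAR siRNA both counts were 3. Without any other single library they were 7 to 9 for complement, 7 without BX795 replicate 2, and 7 for coagulation. C8A, a subunit of the membrane attack complex, went from 8.83, 6.37 and 6.34 CPM to 1.69 and 2.41 CPM, and F11, coagulation factor XI, from 7.99, 8.73 and 8.15 CPM to 2.42 and 2.77 CPM; both stayed called whichever library was left out. In iron handling 3 of 14 tested genes fell. FTH1, the ferritin heavy chain, went from 3750, 3370 and 3310 CPM to 1530 and 1710 CPM, the importer SLC39A8 from 426, 401 and 401 CPM to 171 and 200 CPM, and the exporter SLC40A1 from 194, 212 and 212 CPM to 99.6 and 122 CPM. The smallest p-values after ADAR also included WSB2, which fell from 90, 88.5 and 88 CPM to 30.2 and 31 CPM, and HINT1, which fell from 96.9, 103 and 99.7 CPM to 43.2 and 46.4 CPM; both fell without BX795 too (-1.77 and -1.55). LYZ, a macrophage marker also made by epithelia, was counted 66 times over the BX795 libraries and 13 times with ADAR siRNA.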
